A study of Saccharomyces cerevisiae with 4 samples.

Results

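The ORFs described here encode the enzymes of central carbon metabolism: glycolysis with alcoholic fermentation (from hexokinase *HXK1* to alcohol dehydrogenase *ADH2*), and the TCA cycle with succinate dehydrogenase (from citrate synthase *CIT1* to the succinyl-CoA ligase subunit *LSC2*). They were picked by name from a list of 37 systematic ORF names, 22 of glycolysis and fermentation and 15 of the TCA cycle, and 35 of them had values among the 5371 ORFs of the footprint table. The glycolysis and fermentation set kept 20 ORFs, and the TCA cycle set kept all 15. *HXK2* and *PDC5* were not analysed here. The list was drawn up knowing that glycolytic ORFs were lower in one *dbp1∆* library than in the other, so every comparison of that library alone is a description.

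Ribosome profiling, in which the mRNA fragments covered by ribosomes (footprints) are sequenced, was carried out on diploid SK1 budding yeast 6 h after transfer to SPO (sporulation) medium. There were 4 libraries, 2 of wild-type cells and 2 of *dbp1∆* cells, and GEO describes those of a genotype as biological replicates. In *dbp1∆* cells the ORF of *DBP1*, a DEAD-box RNA helicase, had been removed with Cas9 without leaving a selection marker, and the sources used here do not say whether the replicates came from separate clones. Per the study's methods, all cells were grown in glucose medium and then in acetate medium before the transfer, and the SPO medium was a rich one with potassium acetate as the carbon source, so neither genotype had glucose at collection. All were treated with cycloheximide before freezing.

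Glycolysis splits glucose into pyruvate, and most of its steps run in either direction, so that cells living on acetate or ethanol use the same enzymes in reverse to build sugars. The steps catalysed by hexokinase, phosphofructokinase and pyruvate kinase run one way only, and gluconeogenesis bypasses them with other enzymes. The TCA cycle in mitochondria oxidizes acetyl-CoA made from acetate, and sporulating yeast depends on respiration for energy. Many of these steps have several isozymes in budding yeast, with one form dominant in glucose medium and another made when glucose is absent.

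Levels are given as footprint RPKM, the reads of an ORF relative to its length and to the total of mapped reads, and are therefore per length. Paired values stand in the order replicate 1, replicate 2. The depths implied by the RPKM values ranged from 4619170 to 5789194 reads per library. *DBP1* itself was at 164 and 147 RPKM in wild-type cells and at 0.578 and 0.449 RPKM in *dbp1∆* cells, so the libraries matched their labels. All 12 meiotic marker ORFs were read in every library, with none at 0, and 4 of 8 haploid markers had values, summing to between 117 and 155 RPKM per library. One library stood apart: over 5338 ORFs, Pearson's r of log2 values lay between 0.978 and 0.981 for pairs that included *dbp1∆* replicate 1, and between 0.989 and 0.992 for the others. The summed level of the meiotic markers was 36445 RPKM in that library against 22053 to 23962 in the other 3, a difference that lay in the late sporulation gene *SPS4*, at 24202 RPKM there and 9923 to 11885 elsewhere. Without *SPS4* the other 11 markers summed to 12243 RPKM in that library and to between 11520 and 12130 RPKM in the rest. Of the 12 markers, 7 lay above both wild-type libraries in *dbp1∆* replicate 1 (40.8% of all tested ORFs), among them *IME1* and *HOP1* with log2 ratios of 0.72 and 0.62. Below both were 4 (41.6%), among them *NDT80* at -0.34. In *dbp1∆* replicate 2, 2 lay above both wild-type libraries (28% of all tested ORFs) and 8 below both (43.2%). What part these differences between libraries have in the results was not tested.

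The TCA cycle ORFs were read far more heavily than those of glycolysis in every library. The median TCA cycle ORF was at 925 and 839 RPKM in wild-type cells, and at 648 and 948 RPKM in *dbp1∆* cells. The median glycolysis and fermentation ORF was at 75.4 and 71.8 RPKM in wild-type cells, and at 58.8 and 77.6 RPKM in the *dbp1∆* libraries. The median of all ORFs was between 32.0 and 33.4 RPKM, so the typical glycolytic ORF lay only moderately above it. Summed RPKM of the TCA cycle set was 4.10, 4.59, 6.49 and 4.08 times that of the glycolysis and fermentation set in wild-type replicates 1 and 2 and *dbp1∆* replicates 1 and 2. The glycolysis and fermentation set held 0.377% and 0.320% of all summed RPKM in wild-type cells, and 0.181% and 0.368% in the *dbp1∆* libraries. For the TCA cycle set these shares were 1.54% and 1.47%, and 1.18% and 1.503%. For both sets the share in *dbp1∆* replicate 1 was below that of the other 3 libraries, while *dbp1∆* replicate 2 lay inside the wild-type range.

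**Figure D1:**
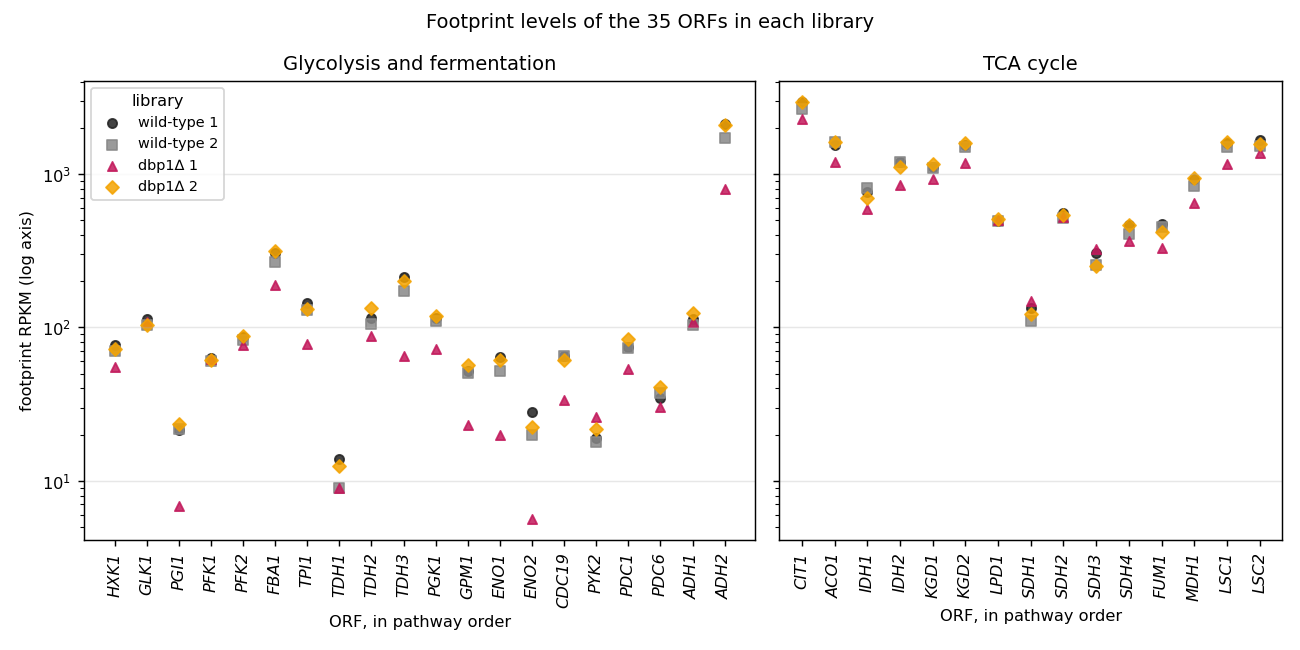
Footprint RPKM on a log axis for each of the 35 ORFs in pathway order, with glycolysis and fermentation on the left and the TCA cycle on the right. Each symbol is 1 library. *ADH2* lies far above the other ORFs of its set, and *dbp1∆* replicate 1 is the lowest symbol for most glycolytic ORFs.

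*ADH2* (YMR303C), the alcohol dehydrogenase that oxidizes ethanol and is repressed by glucose, dominated the first set. It was at 2104 and 1708 RPKM in wild-type cells, and at 799 and 2077 RPKM in *dbp1∆* cells. This ORF alone made up 55.0% and 52.4% of the summed RPKM of the set in the wild-type libraries, and 41.8% and 54.5% in the *dbp1∆* libraries. Without it, the set held 0.169% and 0.152% of all RPKM in wild-type cells, and 0.105% and 0.167% in the *dbp1∆* libraries, so *dbp1∆* replicate 1 had the lowest share without *ADH2* too. At the other end, the glyceraldehyde-3-phosphate dehydrogenase isozyme *TDH1* and the enolase *ENO2* were among the lowest, and 4 of the 20 ORFs lay below the median of all ORFs in each wild-type library and in *dbp1∆* replicate 2. In *dbp1∆* replicate 1 there were 7. In the TCA cycle set *CIT1* (YNR001C), which condenses acetyl-CoA with oxaloacetate, was the highest in all libraries, at 2927 and 2668 RPKM in wild-type cells and 2294 and 2952 RPKM in *dbp1∆* cells, and the flavoprotein subunit *SDH1* was the lowest.

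Comparing the genotypes asks whether removal of *DBP1* alters the translation of these ORFs. With both replicates of each genotype, 0 of the 35 ORFs passed the adjusted threshold of 0.05 in limma's test on log2(RPKM + 0.5), against 2 of 5338 tested ORFs, or 0.0375%. Of these 2, 1 was the deleted *DBP1* itself. At an unadjusted p under 0.05 the count was also 0 of 35, against 1.67% of all tested ORFs. The smallest p among the 35 was 0.0872, for *ENO2*, and limma's adjusted p was 0.9998 for each of the 35. The median log2 fold change was -0.22 for glycolysis and fermentation and -0.13 for the TCA cycle, against -0.03 for all tested ORFs. Both rested on a single library, and they were 0.10 and 0.02 without *dbp1∆* replicate 1. Without *dbp1∆* replicate 2, limma's test of the remaining library against wild type took its spread from the wild-type pair alone. It then called 17 of the 35 at an adjusted p under 0.05 (9.7% of all tested ORFs), all of them lower (5.62% of all tested ORFs). As that library's low glycolytic values were known when the list was drawn up, this count describes the library and is no test of the ORFs. A footprint level from a whole culture cannot tell fewer cells of a type from less RNA per cell. It also does not separate the amount of an mRNA from its translation, and mRNA was not analysed here.

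Few ORFs separated the genotypes. Both *dbp1∆* libraries lay below both wild-type libraries for 1 glycolytic and 3 TCA cycle ORFs, or 4 of 35, where 15.3% of all tested ORFs did so. These were the pyruvate kinase *CDC19*, both subunits of isocitrate dehydrogenase (*IDH1* and *IDH2*), and the fumarase *FUM1*. Both *dbp1∆* libraries lay above both wild-type libraries for 2 of 35, the second pyruvate kinase *PYK2* and the dihydrolipoamide dehydrogenase *LPD1*, against 9.59% of all tested ORFs. Together 6 of 35 did not overlap between the genotypes, against 24.9% of all tested ORFs, and the remaining 29 did.

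Taken separately, the *dbp1∆* libraries gave different pictures of glycolysis. *dbp1∆* replicate 1 had a median log2 ratio to the wild-type mean of -0.53 over the 20 glycolysis and fermentation ORFs, with a range from -1.97 to 0.49, while the median of all tested ORFs was 0.00. Of the 20, 18 were below the wild-type mean (49.8% of all tested ORFs), 15 were below both wild-type libraries (41.6% of all tested ORFs), and 10 were lower by 1.5-fold or more (3.92% of all tested ORFs). Higher by as much were 0 of 20 (7.36%). *dbp1∆* replicate 2 had a median of 0.10 for the same ORFs, against -0.04 for all tested ORFs, with 14 of 20 above the wild-type mean. In that library 10 of 20 lay above both wild-type libraries (28% of all tested ORFs) and 1 below both (43.2%), and 0 were lower by 1.5-fold or more (2.49%) or higher by as much (1.12%). The wild-type libraries differed from each other by a median log2 ratio of 0.12 (replicate 1 to replicate 2) over these ORFs, with 0 lower by 1.5-fold or more in replicate 1 (2.53% of all tested ORFs) and 1, *TDH1*, higher (2.47%). Set against wild-type replicates 1 and 2 singly, the medians were -0.63 and -0.47 for *dbp1∆* replicate 1. For *dbp1∆* replicate 2 they were -0.00045 and 0.17. The low values of *dbp1∆* replicate 1 were known when the list was drawn up, so these distances are a description and were not tested.

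For the TCA cycle ORFs the ratios of *dbp1∆* replicate 1 were smaller. In *dbp1∆* replicate 1 their median log2 ratio to the wild-type mean was -0.28, with a range from -0.50 to 0.29. Of the 15, 12 were below the wild-type mean (49.8% of all tested ORFs), 11 were below both wild-type libraries (41.6%), and 0 were lower by 1.5-fold or more (3.92%). In *dbp1∆* replicate 2 the median was 0.02, and 0 were lower by 1.5-fold or more (2.49%). The wild-type libraries were 0.10 apart. Set directly against each other, *dbp1∆* replicate 1 was lower than *dbp1∆* replicate 2 for 17 of 20 glycolysis and fermentation ORFs and for 13 of 15 TCA cycle ORFs, where 45.6% of all tested ORFs were lower. By 1.5-fold or more it was lower for 12 and for 0 ORFs respectively, against 5.4% of all tested ORFs. The medians of this comparison, -0.67 and -0.35 against 0.05 for all tested ORFs, belong to the difference the list was drawn up with and are given without a test.

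**Figure D2:**
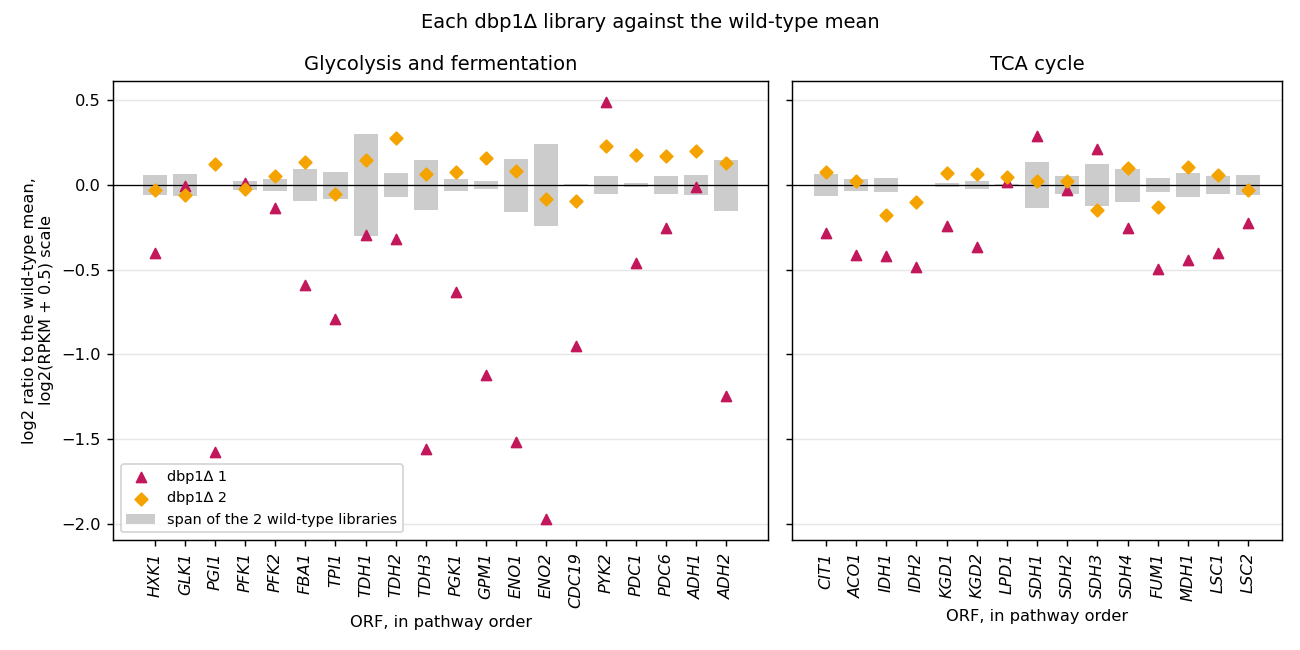
Log2 ratio of each *dbp1∆* library to the wild-type mean, on the log2(RPKM + 0.5) scale, for the 35 ORFs in pathway order, with grey bars spanning the 2 wild-type libraries. Triangles (*dbp1∆* replicate 1) reach down to -1.97 for *ENO2* and stay above -0.50 in the TCA cycle, while diamonds (*dbp1∆* replicate 2) stay between -0.18 and 0.28.

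**Figure D3:**
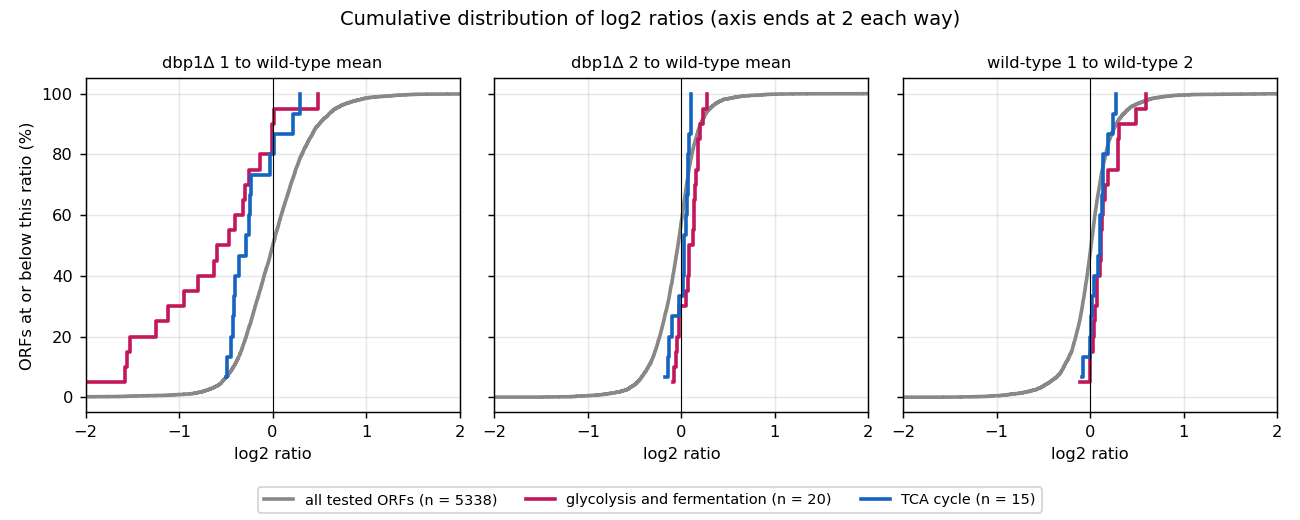
Cumulative distribution of log2 ratios for the 20 glycolysis and fermentation ORFs, the 15 TCA cycle ORFs and all 5338 tested ORFs, with the percentage of ORFs at or below each ratio on the vertical axis. The glycolysis curve lies left of all ORFs in the *dbp1∆* replicate 1 panel (median -0.53) and slightly right of it in the *dbp1∆* replicate 2 panel (median 0.10).

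Sugar phosphorylation opens glycolysis. *HXK1* (YFR053C), a hexokinase made when glucose is absent, was at 76.2 and 70.3 RPKM in wild-type cells, and at 55.4 and 71.8 RPKM in *dbp1∆* cells. The glucokinase *GLK1* (YCL040W) was at 113 and 103 RPKM in wild-type cells, and at 108 and 104 RPKM in the *dbp1∆* libraries. The 4 values of *GLK1* overlapped, whereas *HXK1* was lower in *dbp1∆* replicate 1 than in the others. *EMI2*, a paralog of *GLK1* outside the list, was read 51.8 to 64.6 times as heavily as *GLK1*, at 5869 and 6003 RPKM in wild-type and 6058 and 6705 RPKM in *dbp1∆* cells, and so carried most of the footprints of this family here.

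Phosphofructokinase, which commits sugar to breakdown, has a pair of subunits that varied little. Its alpha subunit *PFK1* (YGR240C) was at 63.0 and 60.7 RPKM in wild-type cells, and at 62.3 and 60.9 RPKM in the *dbp1∆* libraries. The beta subunit *PFK2* (YMR205C) was at 86.7 and 82.8 RPKM, and at 77.2 and 87.8 RPKM. Its level was 1.24 to 1.44 times that of *PFK1*, with the lowest ratio in *dbp1∆* replicate 1.

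The reversible steps between phosphofructokinase and hexokinase on one side and pyruvate kinase on the other held the lowest ratios of *dbp1∆* replicate 1. This grouping was made after the values were seen. Over its 10 ORFs the median log2 ratio of *dbp1∆* replicate 1 to the wild-type mean was -0.96, with 10 of 10 below 0 (49.8% of all tested ORFs) and 8 lower by 1.5-fold or more (3.92%), whereas *dbp1∆* replicate 2 had a median of 0.10. The 6 ORFs of the one-way steps had medians of -0.07 and -0.02, and the 4 fermentation ORFs had medians of -0.36 and 0.17. In *dbp1∆* replicate 1 the one-way ORFs ranged from -0.95 (*CDC19*) to 0.49 (*PYK2*). Of these, 4 of 6 were below 0 and 1 was lower by 1.5-fold or more. The reversible ORFs ranged from -1.97 to -0.30 there, so the 2 groups overlapped. Of the fermentation ORFs, 4 of 4 were below 0 and 1 was lower by 1.5-fold or more.

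*PGI1* (YBR196C), the glucose-6-phosphate isomerase, was at 21.5 and 21.6 RPKM in wild-type cells, and at 6.89 and 23.6 RPKM in *dbp1∆* cells. The low value rested on 64 reads, with a 95% Clopper-Pearson interval of 5.30 to 8.80 RPKM that covers counting error only. The other 3 libraries had 160 to 188 reads. The ORF was 3.13-fold lower in *dbp1∆* replicate 1 than the wild-type mean, while the other 3 libraries lay close together. Over both replicates its log2 fold change was -0.73 with a standard error of 0.47.

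Aldolase and triose phosphate isomerase, which make and interconvert the 3-carbon sugars, were also lowest in *dbp1∆* replicate 1, with smaller distances. The aldolase *FBA1* (YKL060C) was at 306 and 268 RPKM in wild-type cells, and at 190 and 314 RPKM in *dbp1∆* cells. The isomerase *TPI1* (YDR050C) was at 144 and 129 RPKM, and at 78.4 and 131 RPKM. *FBA1* was thus 1.51-fold and *TPI1* 1.74-fold lower in *dbp1∆* replicate 1 than the wild-type mean.

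Glyceraldehyde-3-phosphate dehydrogenase has 3 isozymes in yeast, and their order differed in 1 library. *TDH3* (YGR192C), the main form in glucose medium, was at 214 and 174 RPKM in wild-type cells, and at 65.1 and 202 RPKM in *dbp1∆* cells. *TDH2* (YJR009C) was at 115 and 104 RPKM in wild-type cells, and at 87.9 and 133 RPKM in *dbp1∆* cells. *TDH1* (YJL052W), associated with stress and stationary phase, was at 13.9 and 8.99 RPKM, and at 9.01 and 12.4 RPKM. *TDH3* exceeded *TDH2* by 1.86- and 1.66-fold in the wild-type libraries and by 1.51-fold in *dbp1∆* replicate 2, but was at 0.741 of its level in *dbp1∆* replicate 1. The ratio of *TDH2* to *TDH1* was 8.30 and 11.6 in wild-type cells and 9.76 and 10.7 in *dbp1∆* cells, so the library that stood apart did so through *TDH3*. Its level there was 2.97-fold below the wild-type mean, and over both replicates its log2 fold change was -0.75 with a standard error of 0.44. *TDH1* had only 39 to 69 reads per library. The 3 sequences are close copies of each other, and how reads that match more than 1 of them were assigned is not given in the sources used here, so the split between them is uncertain.

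Phosphoglycerate kinase *PGK1* (YCR012W), which makes the first ATP of the pathway, was at 115 and 110 RPKM in wild-type cells, and at 72.4 and 119 RPKM in *dbp1∆* cells. The mutase *GPM1* (YKL152C) was at 51.9 and 50.3 RPKM, and at 23.2 and 57.1 RPKM. For both enzymes *dbp1∆* replicate 2 lay just above the wild-type libraries and *dbp1∆* replicate 1 below them, by 1.55-fold for *PGK1* and 2.20-fold for *GPM1* relative to the wild-type mean.

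Enolase showed the lowest ratio of the whole set. *ENO2* (YHR174W), the form induced by glucose, was at 28.0 and 19.9 RPKM in wild-type cells, and at 5.65 and 22.3 RPKM in *dbp1∆* cells. Its 41 reads in *dbp1∆* replicate 1 gave a 95% interval of 4.05 to 7.66 RPKM, below the intervals of the other 3 libraries, of which the lowest began at 16.4 RPKM. These intervals cover counting error and leave out variation between libraries. As this low value was the most extreme of a set known to be low there, the gap is a description. *ENO1* (YGR254W), the form that is also made without glucose, was at 64.5 and 51.8 RPKM in wild-type cells, and at 19.8 and 61.3 RPKM in *dbp1∆* cells. Relative to the wild-type mean *ENO2* was 4.24-fold and *ENO1* 2.93-fold lower in *dbp1∆* replicate 1, whereas *dbp1∆* replicate 2 lay within the wild-type values for both. Over both replicates the log2 fold change of *ENO2* was -1.02 with a standard error of 0.53, and that of *ENO1* -0.72 with a standard error of 0.44. The ratio of *ENO1* to *ENO2* was 2.30 and 2.61 in wild-type cells and 3.51 and 2.75 in *dbp1∆* cells, so *ENO1* was the higher form in all 4 libraries. These isozymes are also near copies, with the same uncertainty in their split.

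Among the listed enzymes, only pyruvate kinase, the last step of glycolysis, had isozymes on opposite sides of wild type in both *dbp1∆* libraries. *CDC19* (YAL038W), the main form in glucose medium, was at 64.8 and 65.1 RPKM in wild-type cells, and at 33.4 and 60.9 RPKM in the *dbp1∆* libraries. *PYK2* (YOR347C), a glucose-repressed form, was at 19.1 and 17.8 RPKM in wild-type cells, and at 26.1 and 21.8 RPKM in *dbp1∆* cells. *CDC19* was therefore lower and *PYK2* higher in both *dbp1∆* libraries than in either wild-type library, by log2 ratios to the wild-type mean of -0.95 and -0.09 for *CDC19* and of 0.49 and 0.23 for *PYK2*. In *dbp1∆* replicate 2 the Clopper-Pearson interval of *CDC19*, 55.3 to 66.9 RPKM, contained both wild-type values. That of *PYK2* there, 18.5 to 25.4 RPKM, contained the value of wild-type replicate 1 but not of replicate 2. Genotypes that did not overlap, in either direction, were found in 24.9% of all tested ORFs. The ratio of *CDC19* to *PYK2* was 3.39 and 3.66 in wild-type cells and 1.28 and 2.80 in *dbp1∆* cells. Neither ORF passed limma's test, which gave log2 fold changes of -0.52 with a standard error of 0.27 for *CDC19* and of 0.36 with a standard error of 0.20 for *PYK2*. The ratio itself was not tested.

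The fermentation branch turns pyruvate into ethanol or, in the *ADH2* direction, ethanol back into acetaldehyde. The pyruvate decarboxylase *PDC1* (YLR044C) was at 74.5 and 73.2 RPKM in wild-type cells, and at 53.6 and 83.5 RPKM in *dbp1∆* cells. *PDC6* (YGR087C), usually the minor isozyme, was at 34.7 and 37.4 RPKM, and at 30.2 and 40.7 RPKM. The ratio of *PDC1* to *PDC6* stayed between 1.78 and 2.15. *ADH1* (YOL086C), the alcohol dehydrogenase of fermentation, was at 113 and 104 RPKM in wild-type cells, and at 108 and 125 RPKM in *dbp1∆* cells. *ADH2* exceeded it by 18.6- and 16.4-fold in the wild-type libraries and by 7.40- and 16.6-fold in *dbp1∆* replicates 1 and 2, a difference that came from *ADH2*, 2.39-fold below the wild-type mean in *dbp1∆* replicate 1, while the 4 values of *ADH1* overlapped. *ADH1* and *ADH2* are close in sequence as well. The mitochondrial *ADH3*, outside the list, was 2.63 to 3.04 times as high as *ADH1*.

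**Figure D4:**
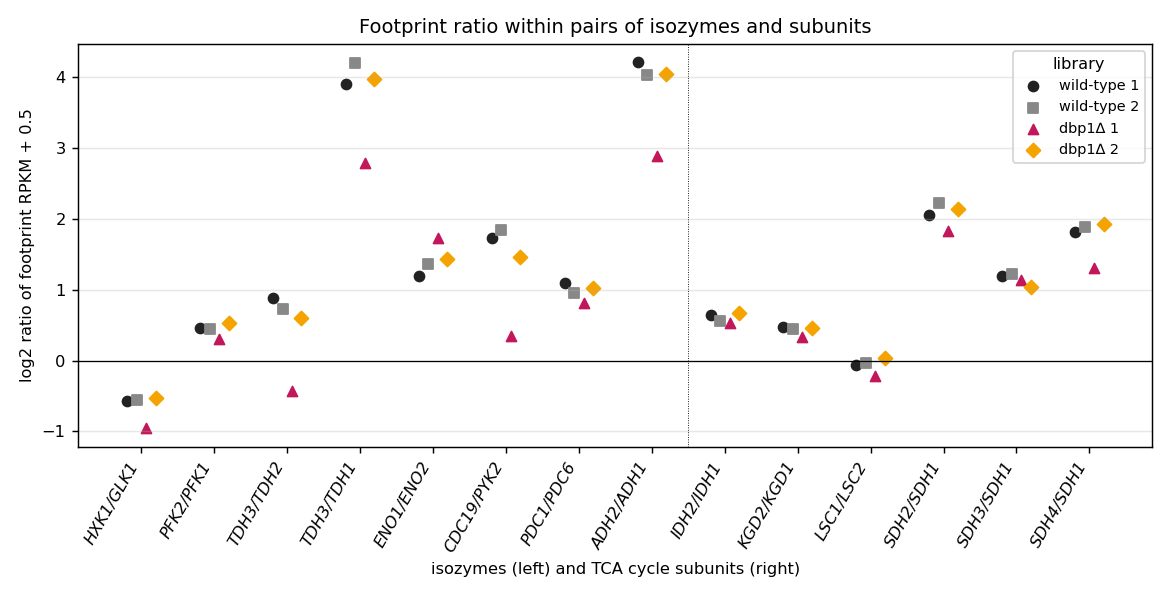
Log2 ratio of footprint RPKM + 0.5 within pairs of isozymes (left of the dotted line) and of TCA cycle subunits (right) in each library. *dbp1∆* replicate 1 lies below the other 3 libraries for *TDH3* to *TDH2*, *CDC19* to *PYK2* and *ADH2* to *ADH1*. Among the subunits, *SDH4* to *SDH1* spans the widest range, from a ratio of 2.48 in *dbp1∆* replicate 1 to 3.81.

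In the TCA cycle, the entry enzymes were heavily read. Beside *CIT1*, the aconitase *ACO1* (YLR304C) was at 1544 and 1626 RPKM in wild-type cells, and at 1189 and 1609 RPKM in *dbp1∆* cells. *CIT1* was 1.83 to 2.55 times as high as *CIT2*, the peroxisomal citrate synthase of the glyoxylate cycle, so the mitochondrial form was the higher one in all 4 libraries.

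Isocitrate dehydrogenase, an enzyme of paired *IDH1* (YNL037C) and *IDH2* (YOR136W) subunits that makes NADH, lay lower in both *dbp1∆* libraries. *IDH1* was at 764 and 809 RPKM in wild-type cells, and at 588 and 695 RPKM in *dbp1∆* cells. *IDH2* was at 1188 and 1189 RPKM in wild-type cells, and at 849 and 1110 RPKM in *dbp1∆* cells. The subunits had a ratio of *IDH2* to *IDH1* between 1.44 and 1.60 in all 4 libraries. The log2 fold change was -0.30 with a standard error of 0.16 for *IDH1* and -0.29 with a standard error of 0.18 for *IDH2*. Neither passed the test, and this order of libraries was found in 15.3% of all tested ORFs.

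The 2-oxoglutarate dehydrogenase complex has 3 components. *KGD1* (YIL125W) was at 1108 and 1090 RPKM in wild-type cells, and at 931 and 1155 RPKM in *dbp1∆* cells, and *KGD2* (YDR148C) at 1535 and 1489 RPKM, and at 1175 and 1585 RPKM. *LPD1* (YFL018C), which is shared with pyruvate dehydrogenase, was at 494 and 490 RPKM in wild-type cells, and at 498 and 509 RPKM in *dbp1∆* cells. *LPD1* was above the wild-type libraries in both *dbp1∆* libraries, but its log2 fold change was only 0.03 with a standard error of 0.15. The ratio of *KGD2* to *KGD1* stayed between 1.26 and 1.38. In succinyl-CoA ligase, the next enzyme, *LSC1* (YOR142W) was at 1599 and 1489 RPKM, and at 1170 and 1609 RPKM. Its partner *LSC2* (YGR244C) was at 1665 and 1530 RPKM, and at 1364 and 1567 RPKM. The ratio of *LSC1* to *LSC2* lay between 0.858 and 1.03, so the subunits of this heterodimer were read about equally.

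Succinate dehydrogenase, which also serves the respiratory chain, has 4 subunits in the list. *SDH1* (YKL148C) was at 133 and 110 RPKM in wild-type cells, and at 148 and 123 RPKM in *dbp1∆* cells. The iron-sulfur subunit *SDH2* (YLL041C) was at 555 and 514 RPKM in wild-type cells, and at 524 and 544 RPKM in *dbp1∆* cells. *SDH1* was thus highest in the library in which most other ORFs were lowest, and *SDH2* stayed within its wild-type values. The membrane subunit *SDH3* (YKL141W) was at 304 and 256 RPKM, and at 324 and 252 RPKM. The other membrane subunit, *SDH4* (YDR178W), was at 467 and 408 RPKM, and at 366 and 467 RPKM, and it was lowest in *dbp1∆* replicate 1. The subunits were read unequally, with *SDH2* at 3.55 to 4.69 times, *SDH3* at 2.05 to 2.34 times and *SDH4* at 2.48 to 3.81 times the level of *SDH1*. *SDH9*, a paralog of *SDH1*, was lower than *SDH1*, which exceeded it by 1.28- to 1.59-fold, and it too can share reads.

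Fumarase and malate dehydrogenase close the cycle. *FUM1* (YPL262W) was at 475 and 448 RPKM in wild-type cells, and at 327 and 421 RPKM in *dbp1∆* cells, with a log2 fold change of -0.31 and a standard error of 0.17. Both *dbp1∆* values were lower than both wild-type values. *MDH1* (YKL085W) was at 925 and 839 RPKM in wild-type cells, and at 648 and 948 RPKM in *dbp1∆* cells, with a log2 fold change of -0.17 and a standard error of 0.20. The cytosolic *MDH2*, which serves gluconeogenesis, was the higher malate dehydrogenase, and *MDH1* was at 0.329 to 0.441 of its level.

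The neighbouring pathways showed 0 ORFs past limma's adjusted threshold: 0 of 4 for pyruvate dehydrogenase, 0 of 14 for other isozymes, 0 of 3 for hexose transporters, 0 of 4 for regulators of glycolytic genes, 0 of 6 for regulators of respiratory genes, 0 of 7 for gluconeogenesis and the glyoxylate cycle, and 0 of 5 for the glycerol and fructose 2,6-bisphosphate branches. At an unadjusted p under 0.05 there was 1, where 1.67% of all tested ORFs passed. This ORF was *TYE7*, a transcription factor of glycolytic genes. It was at 18.3 and 16.2 RPKM in wild-type cells, and at 8.04 and 12.8 RPKM in *dbp1∆* cells, with a log2 fold change of -0.73 and a standard error of 0.27 (limma's unadjusted p = 0.0257, adjusted p = 0.9998). *GCR1*, the main activator of glycolytic genes, was at 19.0 and 18.1 RPKM, and at 12.5 and 21.5 RPKM. *HAP4*, the limiting subunit of the activator of respiratory genes, was at 45.2 and 41.6 RPKM, and at 45.7 and 42.6 RPKM, with all 4 values close together. Of its DNA-binding partners, *HAP5* was at 19.2 and 19.1 RPKM, and at 11.9 and 16.5 RPKM, lower in both *dbp1∆* libraries (15.3% of all tested ORFs). Its log2 fold change was -0.44 with a standard error of 0.23. *HAP3* was at 86.1 and 99.3 RPKM, and at 70.5 and 100.3 RPKM. *HAP2* was at 49.8 and 46.6 RPKM, and at 48.5 and 48.1 RPKM. Another of the 6 regulators of respiratory genes, *RTG1*, was higher in both *dbp1∆* libraries (9.59% of all tested ORFs). It was at 244 and 250 RPKM in wild-type cells, and at 283 and 315 RPKM in *dbp1∆* cells.

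Gluconeogenesis bypasses the one-way steps with *FBP1* and *PCK1*. The fructose-1,6-bisphosphatase *FBP1* was at 84.0 and 89.5 RPKM in wild-type cells, and at 36.1 and 85.8 RPKM in *dbp1∆* cells, and thus had its lowest value in the same library as the reversible glycolytic steps. The phosphoenolpyruvate carboxykinase *PCK1* did not, at 1506 and 1835 RPKM, and at 1810 and 1433 RPKM. Of the 7 ORFs of gluconeogenesis and the glyoxylate cycle, 3 lay below both wild-type libraries in *dbp1∆* replicate 1 (41.6% of all tested ORFs). These were *FBP1*, *MDH2* and *MLS1*, and 2 lay above both (40.8%). Of the 7 hexose transporters looked up, 3 had values, and all 3 lay below both wild-type libraries there (41.6% of all tested ORFs). Low values in that library were thus not confined to the list. The acetyl-CoA synthetase *ACS1*, which activates acetate, was at 4205 and 3749 RPKM, and at 4471 and 3684 RPKM, higher than any of the 35 ORFs in all 4 libraries.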

How the data were processed

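Footprint RPKM values per ORF and library were deposited by the authors, each library on its own and with no scaling between libraries. RPKM here is an ORF's read number, from alignment to SK1, corrected for library size and for the ORF's length. The submitters' processing notes name Bowtie2. Its version, the annotation and the handling of multiply matching reads are not given in the sources used here. Symbols came from the RefSeq yeast annotation.

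The test was limma (version 3.58.1, under R version 4.3.3) on log2(RPKM + 0.5), using lmFit and eBayes with trend and genotype as the only term. It took in the 5338 of 5371 ORFs that averaged 1 RPKM or more, with Benjamini-Hochberg adjustment over all of them. All 35 members passed this filter. Fold changes on this scale understate changes of low ORFs. Folds and ratios of RPKM used no pseudocount. Wild-type means for log2 ratios are means of log2 values. P-values rest only on the spread between 2 libraries per genotype, which eBayes moderates for each ORF with the spread of all tested ORFs.

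Depth was recovered from the steps of the RPKM values (length less 60 nt). Within 0.02 reads, 88.6% of values were whole, and so were all those of the 35 members. Clopper-Pearson intervals (95%) cover counting error only. Recovery and fits were tested on simulated data.

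The members and lists were chosen with earlier results of these data known. Values in every library were given for enzymes with several isozymes or subunits and for the 4 members per set with the largest ratio of *dbp1∆* replicate 1, and other members, with ORFs outside the list, were named after their values were seen. Alternatives covered pseudocounts of 0.1 and 1, no filter, a minimum of 10 RPKM, median centring, quantile normalization, no trend, a replicate block, voom on recovered reads and leaving out each library. A crossed block and sets without paralogs or *ADH2* were added after seeing the data. Tables and figures were made in Python 3.11.15 with matplotlib 3.10.9, pandas 2.3.3, numpy 2.4.6 and scipy 1.17.1.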

Additional observations from a re-analysis of the deposited data

How the results depend on the processing

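The result that turned on 1 library was the comparison of genotypes. Leaving out each library in turn gave between 0 and 17 of the 35 ORFs, and between 1 and 518 of all tested ORFs, past limma's adjusted p of 0.05. The 17, of which 10 were glycolytic or fermentative and 7 of the TCA cycle, were all lower and came without *dbp1∆* replicate 2, where 1 library stands against 2, its spread is taken from the wild-type pair, and 5.62% of all tested ORFs were lower. The list was drawn up knowing that library's values, so this count is no test of it. Log2 fold changes lay below 0 for 30 of the 35 ORFs with both *dbp1∆* replicates (57.0% of all tested ORFs). Without *dbp1∆* replicate 1 they did so for 11 of the 35 (57.9%). Fold changes of single ORFs over the left-out libraries were followed for the 4 members per set with the largest ratio of *dbp1∆* replicate 1. Of these, *PGI1* (0.13), *TDH3* (0.067), *ENO1* (0.084) and *MDH1* (0.11) changed sign without that library. Their ranges over the left-out libraries were -1.58 to 0.13, -1.56 to 0.067, -1.52 to 0.084 and -0.44 to 0.11. The median log2 fold change ranged from -0.53 to 0.10 for glycolysis and fermentation and from -0.28 to 0.02 for the TCA cycle. Leaving out a wild-type library moved the median ratio of glycolysis and fermentation ORFs between -0.63 and -0.47 in *dbp1∆* replicate 1 and between -0.00045 and 0.17 in *dbp1∆* replicate 2.

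With the replicate number as a block, 1 of the 35 ORFs (*ENO2*, adjusted p = 0.0230) and 25 of all tested ORFs passed limma's test. The labels do not say that equal numbers pair the samples, and same-numbered deviations correlated at -0.135. The crossed pairing, tried after seeing the data, gave 2 (*TDH3* and *ENO2*) and 28. Voom on recovered reads gave 0 and 1. Quantile normalization moved the median ratio of TCA cycle ORFs in *dbp1∆* replicate 1 to -0.20. Without *ADH2*, the mean share of the glycolysis and fermentation ORFs was 0.161% in wild-type and 0.136% in *dbp1∆* libraries, against 0.348% and 0.275% with it. The causes of these differences were not tested. The other alternatives that kept all 4 libraries left 0 of the 35 ORFs and 2 of all tested ORFs past the threshold. Read counts limit *TDH1* and *ENO2* the most, at 39 reads in wild-type replicate 2 and 41 reads in *dbp1∆* replicate 1.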
